A study of Rattus norvegicus with 22 samples.

Results

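The genes of synaptic vesicles and of transmitter release were followed in the nucleus accumbens (NAc), a ventral striatal region of the reward circuit, in rats that had drunk EtOH or had received it by gavage. The set held 37 genes, chosen by symbol from the 17310 gene symbols listed in the count files, and all 37 were found. They covered 7 proteins of the vesicle coat and membrane, 6 synaptotagmins, 9 SNARE proteins and SNARE partners, 9 genes of the active zone and of vesicle priming, 3 genes of vesicle endocytosis and 3 genes of GABA synthesis and vesicular loading.

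Transmitter is loaded into vesicles, the vesicles dock and are primed at the active zone, calcium binding to synaptotagmin triggers fusion by the SNARE complex, and the membrane is recovered by endocytosis. Most neurons of the NAc are GABAergic medium spiny projection neurons, and glutamate reaches them from axons whose cell bodies lie elsewhere. The mRNA for release proteins of those axons is therefore made largely outside the NAc, while the local neurons make their own.

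All animals were male outbred Wistar rats, and their age is not stated. In experiment 1, 5 rats had continuous access to 6% EtOH (by volume) for 8 weeks and 5 rats received water only. In experiment 2, all 12 rats, the 6 controls included, drank 6% EtOH by choice for 4 weeks before and 2 weeks after 3 weeks of gavage. In those 3 weeks 6 rats received EtOH by gavage (2.5 g/kg as a 30% solution, 2 times a day) and 6 received water by gavage. The gavage contrast therefore set more EtOH against less, and held no EtOH-naive rat. Rats were sacrificed within minutes of bottle removal, and the core and shell of the NAc were dissected. Each library was thus bulk tissue, in which fewer cells of a type and less RNA per cell cannot be told apart. Experiment 1 was sequenced without strand information, so reads of a gene and of an overlapping antisense transcript cannot be told apart there. Experiment 2 was strand-specific.

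Libraries held 2962291 to 5247386 reads on genes in experiment 1 and 6713617 to 8765472 in experiment 2. Levels are given as CPM (gene counts scaled to a common library size) after TMM scaling within each experiment. Reads that htseq-count assigned to no feature are given as a share of those reads plus the gene reads. Below they are called reads outside genes, or outside annotated genes. The counting options are not given, so it is not known whether some of these reads lay within the bounds of genes. This share ran from 48.4% to 51.1% in experiment 1, and from 46.1% to 58.0% in experiment 2. In experiment 2 the first principal component of all tested genes carried 73.6% of the variance, and its absolute correlation with the share was 0.975 over the 12 rats. In experiment 1 it carried 25.9%, with an absolute correlation of 0.464. Markers of medium spiny neurons were present in every rat: Ppp1r1b (DARPP-32) was at least 706 CPM and Drd1 (dopamine D1 receptor) at least 212 CPM. These genes do not tell the NAc from the rest of the striatum. Slc17a7, a marker of glutamatergic neurons, ran from 79.7 to 593 CPM in experiment 1 and from 0.139 to 437 CPM in experiment 2.

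Promoter sequences are shown for 4 members, because within the priming genes (Unc13a, Unc13c) and between Stx1a and Gad2 the levels moved in opposite directions with the share of reads outside genes in experiment 2. RefSeq promoter windows of build GRCr8, from 250 bases before to 50 after the gene start, were matched by symbol, and 31 of the 37 members had exactly 1 window. Capitals mark GC boxes (GGGCGG on either strand, read as CCGCCC on the other), which are known binding sites of Sp-family factors. The sequences are written 5' to 3' on the strand of the gene.
Stx1a (syntaxin-1A, the plasma membrane SNARE; lower at a high share; chr12:27306422-27306721, minus strand, GRCr8): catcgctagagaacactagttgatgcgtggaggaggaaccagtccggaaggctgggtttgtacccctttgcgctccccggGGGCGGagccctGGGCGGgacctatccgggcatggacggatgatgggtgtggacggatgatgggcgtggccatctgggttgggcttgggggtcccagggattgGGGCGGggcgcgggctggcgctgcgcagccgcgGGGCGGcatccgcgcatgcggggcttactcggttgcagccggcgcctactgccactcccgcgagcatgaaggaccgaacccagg
Unc13a (Munc13-1, a vesicle priming factor; lower at a high share; chr16:18415737-18416036, minus strand, GRCr8): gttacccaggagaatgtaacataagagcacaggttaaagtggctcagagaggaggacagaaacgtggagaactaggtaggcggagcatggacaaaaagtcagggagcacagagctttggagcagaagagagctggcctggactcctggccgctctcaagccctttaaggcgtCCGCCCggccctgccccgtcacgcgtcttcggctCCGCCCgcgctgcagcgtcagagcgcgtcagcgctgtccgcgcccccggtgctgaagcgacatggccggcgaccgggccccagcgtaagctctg
Unc13c (Munc13-3, its paralogue; higher at a high share; chr8:83553773-83554072, minus strand, GRCr8): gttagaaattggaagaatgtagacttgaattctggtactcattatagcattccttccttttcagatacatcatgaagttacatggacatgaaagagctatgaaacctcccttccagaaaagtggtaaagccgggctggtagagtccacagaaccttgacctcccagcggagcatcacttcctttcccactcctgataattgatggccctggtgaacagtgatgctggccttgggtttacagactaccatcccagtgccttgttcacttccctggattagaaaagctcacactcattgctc
Gad2 (GAD65, which makes GABA near vesicles; higher at a high share; chr17:89671468-89671767, plus strand, GRCr8): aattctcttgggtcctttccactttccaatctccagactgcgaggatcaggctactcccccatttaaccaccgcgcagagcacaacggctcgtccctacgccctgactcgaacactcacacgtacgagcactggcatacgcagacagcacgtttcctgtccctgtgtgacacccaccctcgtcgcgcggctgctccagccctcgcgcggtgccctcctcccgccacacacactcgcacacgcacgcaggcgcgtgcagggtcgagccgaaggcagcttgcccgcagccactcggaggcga

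The Stx1a window held 4 GC boxes and the Unc13a window 2, whereas the Unc13c and Gad2 windows held 0. GC content was 68.7% for Stx1a, 63.0% for Unc13a, 45.7% for Unc13c and 63.7% for Gad2. Over the 31 members 22 windows held a GC box (71.0%), against 33.1% of all 33469 windows of the same length. All windows include those of genes not tested here. Among members that fell with the share, as tested further on, 13 of 16 windows held one (81.2%), and among those that rose 2 of 7 did (28.6%). This split is given as a description, because over all genes the shares were 67.6% of those falling and 63.9% of those rising. The windows shown do not stand for all members: Slc32a1 fell with 1 box, Sv2c rose with 2 boxes, and Sv2a, Sv2b and Dnm1 fell with 0. TATAAA was in 1 member window (3.23%), against 14.2% of all windows and 5.24% and 6.09% of those of all genes falling and rising. TGACGTCA, the cAMP response element, was in 3 (9.68%), against 1.83%, 3.73% and 3.80%. Across 30 members the slope on the share had a correlation of -0.28 with the GC content of the window.

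The first comparison asked whether voluntary EtOH intake changed these genes. No member passed an FDR below 0.05 in experiment 1 (0 of 37, edgeR quasi-likelihood test with Benjamini-Hochberg adjustment over 8655 genes), and the background over all genes was 0%. At an unadjusted P-value below 0.05 there were 4 members of 37, against 5.58% of all genes. The groups did not overlap in 0 of 37 members, against 0.843% of all genes. Of the 37 fold changes 27 were negative and the median log2 fold change was -0.036, beside -0.0012 over all genes. This median ran from -0.065 to 0.0052 when each rat was left out in turn, and was above 0 only without water replicate 4.

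Vamp1 (synaptobrevin-1, a vesicle SNARE) had the lowest P-value. It measured 307, 321, 242, 301 and 235 CPM in water replicates 1 to 5, and 236, 247, 219, 229 and 261 CPM in EtOH replicates 1 to 5. Water replicates 3 and 5 lay among the EtOH rats, so the groups overlapped. The log2 fold change was -0.24 (SE 0.089, adjusted p = 0.861). Sv2a, the vesicle protein bound by the antiepileptic levetiracetam, measured 560, 590, 562, 532 and 562 CPM in the water rats and 536, 507, 505, 501 and 532 CPM in the EtOH rats. These groups met only at water replicate 4, and the log2 fold change was -0.12 (SE 0.050, adjusted p = 0.866). Sv2a also varied least of the members between the 10 rats, with a coefficient of variation of 5.48%.

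Rab3b, a vesicle GTPase of the active zone, measured 56.7, 70.2, 66.9, 43.6 and 53.8 CPM in the water rats and 40.5, 48.8, 44.2, 52.2 and 55.4 CPM in the EtOH rats. The lowest water rat, replicate 4, was below 4 of the 5 EtOH rats, and the log2 fold change was -0.28 (SE 0.12, adjusted p = 0.866). Syt4, a synaptotagmin with weak calcium binding, was the one member of the first 4 with a positive value. It measured 353, 333, 426, 357 and 397 CPM in the water rats and 412, 434, 430, 423 and 380 CPM in the EtOH rats, with a log2 fold change of 0.15 (SE 0.070, adjusted p = 0.866). The next 4 by P-value were Unc13c (-0.34, SE 0.17, adjusted p = 0.866), Cplx1 (complexin-1, a clamp of the SNARE complex; -0.16, SE 0.086, adjusted p = 0.875), Rims2 (an active zone scaffold; -0.16, SE 0.086, adjusted p = 0.878) and Syn2 (synapsin-2, which tethers vesicles; -0.14, SE 0.076, adjusted p = 0.888).

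By role, 8 of 9 SNARE genes, 6 of 9 active zone genes, 4 of 7 coat and membrane genes, 3 of 6 synaptotagmins, 3 of 3 endocytosis genes and 3 of 3 GABA genes had a negative value. Of the GABA genes Slc32a1 (VGAT, the vesicular GABA transporter) was at -0.17 (SE 0.099), Gad1 at -0.046 (SE 0.087) and Gad2 at -0.034 (SE 0.11). The widest value of any member was that of Syt2, at -0.56 (SE 0.34), whose CPM ran from 9.75 to 37.1 among the 10 rats. Snap25, a plasma membrane SNARE, was at -0.012 (SE 0.059), and its 10 rats lay between 1597 and 1905 CPM.

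**Figure D1:**
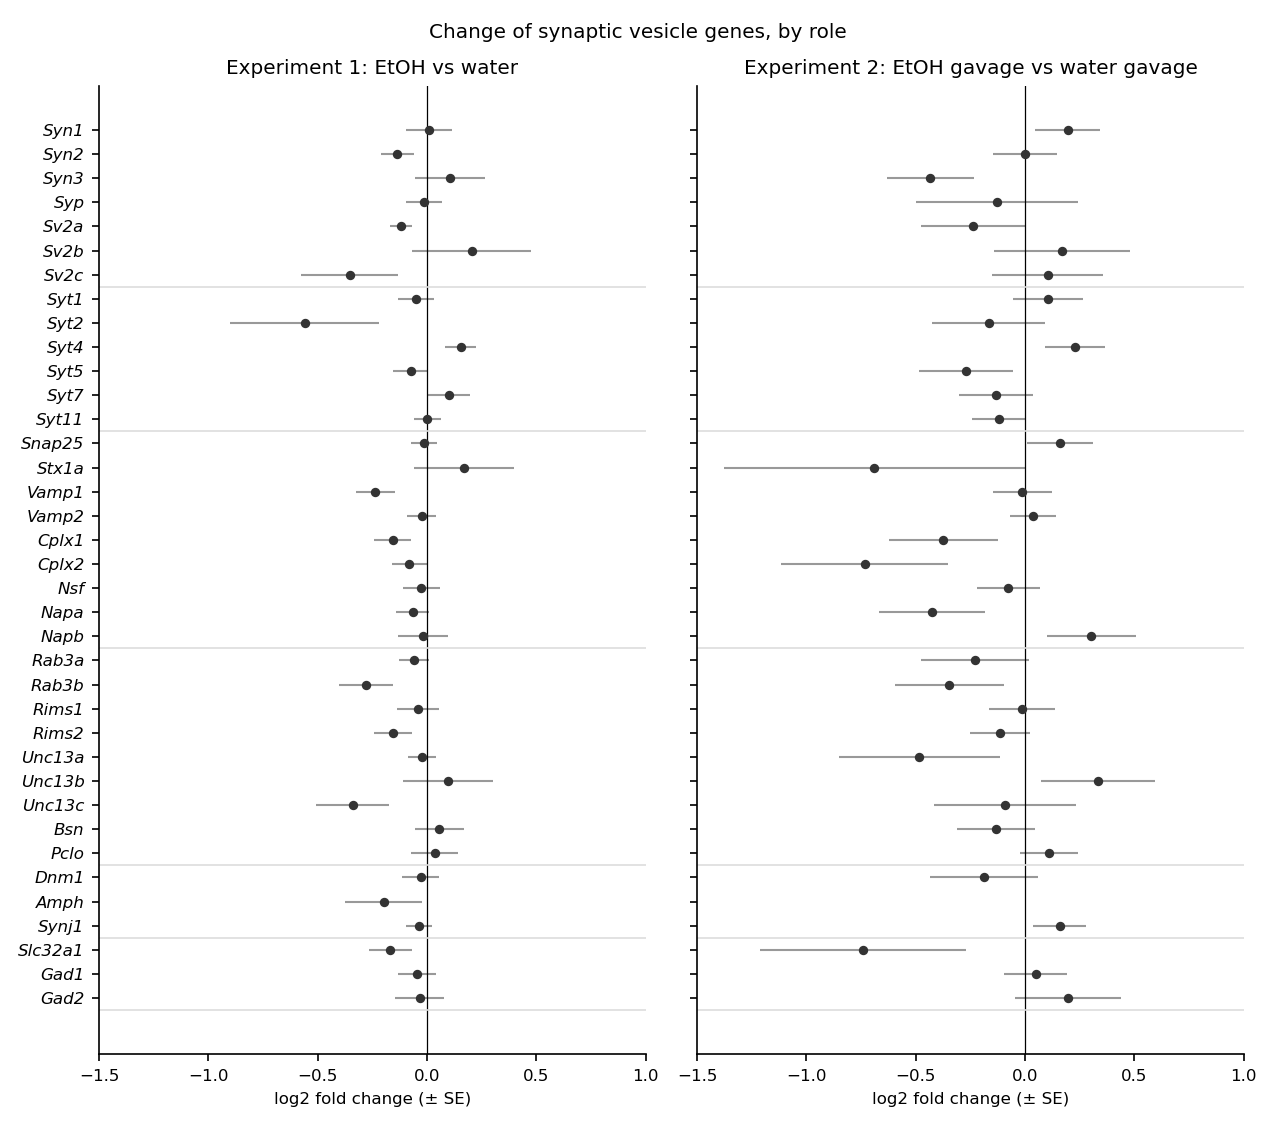
log2 fold change of each member (points) with its standard error (bars), EtOH against water in experiment 1 (left, 5 against 5 rats) and EtOH gavage against water gavage in experiment 2 (right, 6 against 6 rats), with grey lines between roles; Amph was not tested in experiment 2. No member passed the FDR threshold in either panel, and the bars of Stx1a, Slc32a1 and Cplx2 are longer in experiment 2, where their log2 fold changes were -0.69, -0.74 and -0.73.

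In experiment 2 the question was whether EtOH by gavage, added to voluntary intake, changed these genes. Of the 36 members tested 0 passed an FDR below 0.05 (background 0%), and 1 had an unadjusted P-value below 0.05 (background 1.33%). Amph (amphiphysin, of clathrin-mediated endocytosis) did not pass the filter on low counts, with 3.62 to 10.2 CPM over the 12 rats. No member had groups that did not overlap (0 of 36, background 0.0116%). Of the 36 values 22 were negative, and the median log2 fold change was -0.10, beside 0.00088 over all genes. With the share of reads outside genes as a covariate this median was 0.059. The mean share was 50.1% ± 3.09 (SD, n = 6) in water gavage and 52.9% ± 3.42 (SD, n = 6) in EtOH gavage rats, and its part in the fold changes was not tested beyond this fit.

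Syn3 (synapsin-3) was the member with an unadjusted P-value below 0.05. It measured 19.5, 15.5, 15.5, 16.9, 11.98 and 19.4 CPM in water gavage replicates 1 to 6, and 7.25, 12.2, 14.9, 14.3, 11.5 and 12.9 CPM in EtOH gavage replicates 1 to 6. Without water gavage replicate 5, at 11.98 CPM, every water gavage rat lay above every EtOH gavage rat. The log2 fold change was -0.43 (SE 0.20, adjusted p = 0.675). In experiment 1 the value for Syn3 was 0.11 (SE 0.16).

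Slc32a1 had the most negative value, and it followed the share. It measured 19.9, 112, 70.9, 50.3, 20.6 and 49.4 CPM in water gavage and 15.2, 18.8, 34.8, 76.7, 23.2 and 24.6 CPM in EtOH gavage rats. Water gavage replicates 1 and 5, which had the highest shares of their group, lay among the EtOH gavage rats, and EtOH gavage replicate 4, which had the lowest share of its group, lay among the water gavage rats. The log2 fold change was -0.74 (SE 0.47, adjusted p = 0.675) and became 0.046 (SE 0.27) with the share as a covariate. For Cplx2 (complexin-2) the value was -0.73 (SE 0.38, adjusted p = 0.675), against -0.13 (SE 0.15) with the covariate. For Napa (alpha-SNAP, which with NSF takes spent SNARE complexes apart) it was -0.42 (SE 0.24, adjusted p = 0.675), against -0.028 (SE 0.091).

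The other members named by P-value were Syt4 (0.23, SE 0.14), Cplx1 (-0.37, SE 0.25), Napb (beta-SNAP; 0.30, SE 0.20) and Rab3b (-0.35, SE 0.25), all with an adjusted p = 0.675. None of these 8 passed the threshold with the share as a covariate. By role, 7 of 9 active zone genes, 6 of 9 SNARE genes, 4 of 6 synaptotagmins, 3 of 7 coat and membrane genes, 1 of 2 endocytosis genes and 1 of 3 GABA genes had a negative value.

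The effects of the 2 experiments were compared by an interaction term over all 22 rats and 8176 genes. No member of 36 passed an FDR below 0.05 (background 0%), and 0 had an unadjusted P-value below 0.05 (background 1.88%). The lowest adjusted p of a member was 0.813. Syn3 came nearest, with a difference of log2 fold changes of -0.53 (SE 0.25).

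The third question was how the members followed the share of reads outside genes from rat to rat. It was fitted in each experiment with the treatment group in the model, and a slope is the log2 change per percentage point of share. In experiment 1, where the share spanned less than 3 percentage points, no member of 37 passed an FDR below 0.05 (background 0%), while 9 had an unadjusted P-value below 0.05 (background 9.6%), 8 of them with a negative slope. Sv2b, an SV2 form of many excitatory neurons, had the lowest P-value. It measured 137, 211, 219, 274 and 515 CPM in the water rats and 244, 377, 438, 249 and 259 CPM in the EtOH rats. The lowest value was in water replicate 1, the rat of the highest share, and the highest in water replicate 5. The slope was -0.55 (SE 0.11, adjusted p = 0.189).

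The other slopes named in experiment 1 were those of Nsf (the ATPase that disassembles SNAREs; -0.14, SE 0.043, adjusted p = 0.348), Bsn (bassoon, an active zone scaffold; -0.17, SE 0.059, adjusted p = 0.392), Unc13c (0.25, SE 0.086, adjusted p = 0.392), Syt11 (-0.091, SE 0.033, adjusted p = 0.401), Dnm1 (dynamin-1, which cuts off endocytic vesicles; -0.13, SE 0.046, adjusted p = 0.413), Pclo (piccolo; -0.15, SE 0.059, adjusted p = 0.454) and Napb (-0.15, SE 0.068, adjusted p = 0.520). For 7 of these 8 the slope changed sign when the share was taken over all lines of the count file, so their direction in experiment 1 depends on the denominator.

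In experiment 2, 26 of the 36 members passed an FDR below 0.05 for the slope on the share (72.2%), against 67.8% of all genes tested. The members' count was thus near the background and is not a result about this set. With the replicate number as a block it fell to 14 (38.9%, against 29.0% of all genes in the same fit). It fell to 16 without the 2 rats of the highest share and to 15 with a score of glutamatergic markers in the fit, both described further on beside the share of all genes. Of the 26, 18 fell and 8 rose as the share went up, while over all genes 33.9% fell and 33.9% rose. The median slope was -0.048 over the members and 0.0042 over all genes. The named slopes that follow are values of single genes within this change across most of the transcriptome.

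**Figure D2:**
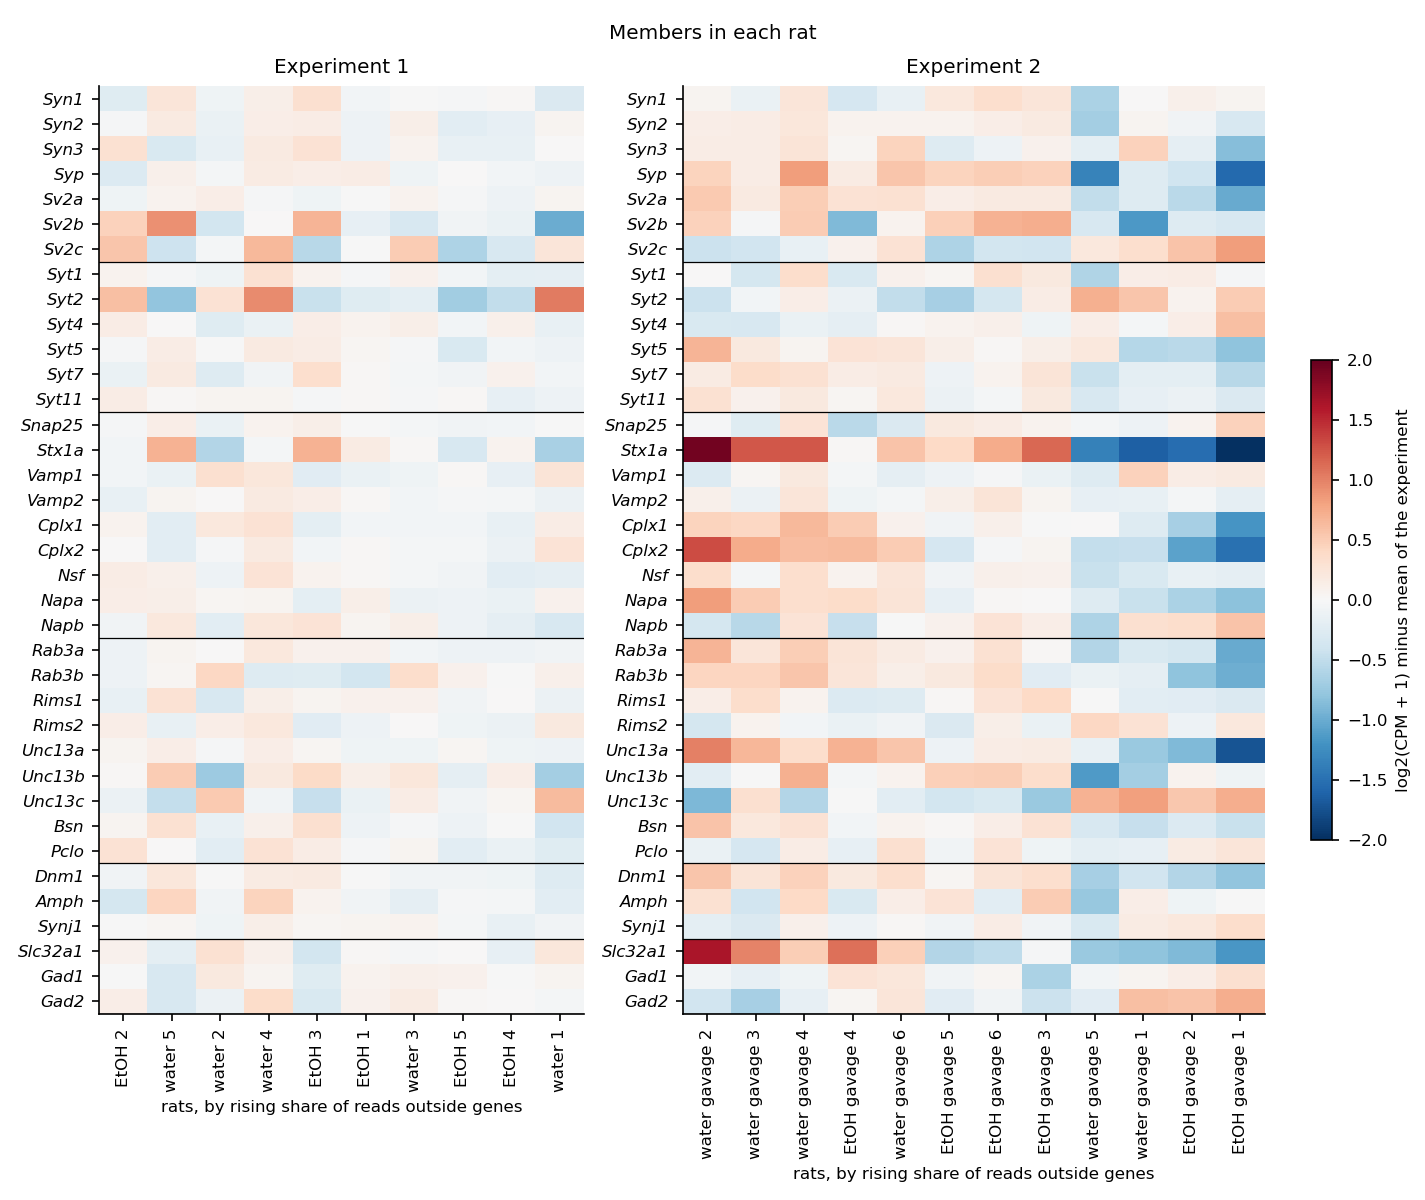
Each row is a member, ordered by role with lines between roles, and each column a rat, ordered by rising share of reads outside genes within experiment 1 (10 rats) and experiment 2 (12 rats). Colour is log2(CPM + 1) minus the mean of the experiment, ending at 2 in either direction. In experiment 2 Stx1a, Cplx2, Unc13a and Slc32a1 run from red to blue along the rats, while Sv2c, Unc13c and Gad2 run the other way.

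Stx1a had the steepest slope of the members. It measured 8.67, 113, 70.0, 69.8, 10.7 and 43.3 CPM in water gavage and 3.33, 9.39, 65.6, 29.6, 38.2 and 48.9 CPM in EtOH gavage rats. The 4 rats with the highest shares, EtOH gavage replicates 1 and 2 and water gavage replicates 1 and 5, were the 4 lowest, and the highest level was 33.8 times the lowest. The slope was -0.45 (SE 0.056, adjusted p = 9.84e-06). In experiment 1 Stx1a ranged from 54.6 to 140 CPM.

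Other SNARE genes and SNARE partners moved with it to different degrees. Napa had the lowest P-value of the members, with 136, 332, 265, 235, 154 and 222 CPM in water gavage and 104, 119, 187, 239, 165 and 188 CPM in EtOH gavage rats, and a slope of -0.14 (SE 0.014, adjusted p = 2.70e-06). Cplx2 measured 30.5, 107, 71.9, 65.4, 30.1 and 60.7 CPM in water gavage and 14.5, 19.7, 43.9, 66.2, 33.4 and 41.8 CPM in EtOH gavage rats, with a slope of -0.23 (SE 0.023, adjusted p = 2.89e-06). Again the 4 rats of the highest share were the 4 lowest for Cplx2. Cplx1 (-0.14, SE 0.020, adjusted p = 4.48e-05) and Nsf (-0.057, SE 0.017, adjusted p = 0.00986) also fell. Vamp1 was the only SNARE gene that passed and rose (0.041, SE 0.017, adjusted p = 0.0463). Napb had a larger positive slope but just missed the threshold (0.062, SE 0.027, adjusted p = 0.0554). Vamp2 (synaptobrevin-2) just missed it with a negative slope (-0.031, SE 0.014, adjusted p = 0.0675). Snap25 did not pass either, with a slope of 0.026 (SE 0.023, adjusted p = 0.313). The slopes of Vamp1, Napb and Snap25 were positive, so the fall did not extend to every SNARE gene tested.

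Among active zone and priming genes, 4 of 9 fell and 2 rose, where 33.9% of all genes fell and 33.9% rose. Unc13a measured 87.5, 298, 233, 189, 132 and 216 CPM in water gavage and 43.8, 79.1, 164, 238, 137 and 163 CPM in EtOH gavage rats. Its slope was -0.22 (SE 0.023, adjusted p = 3.10e-06). Unc13c, whose protein acts in the same priming step, measured 344, 104, 244, 129, 318 and 169 CPM in water gavage and 324, 284, 116, 194, 151 and 157 CPM in EtOH gavage rats. Its 4 highest levels were in the 4 rats of the highest share, where Unc13a had its 4 lowest. The Unc13c slope was 0.15 (SE 0.030, adjusted p = 0.000386).

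Rab3a and Rab3b, GTPases that bind RIM proteins at the active zone, both fell, with slopes of -0.14 (SE 0.018, adjusted p = 2.16e-05) and -0.13 (SE 0.022, adjusted p = 9.46e-05). Bsn fell at -0.091 (SE 0.016, adjusted p = 0.000186), whereas Pclo, its large relative, was at 0.017 (SE 0.020, adjusted p = 0.466). Rims2 rose at 0.052 (SE 0.016, adjusted p = 0.0110), and Rims1 and Unc13b did not pass the test.

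**Figure D3:**
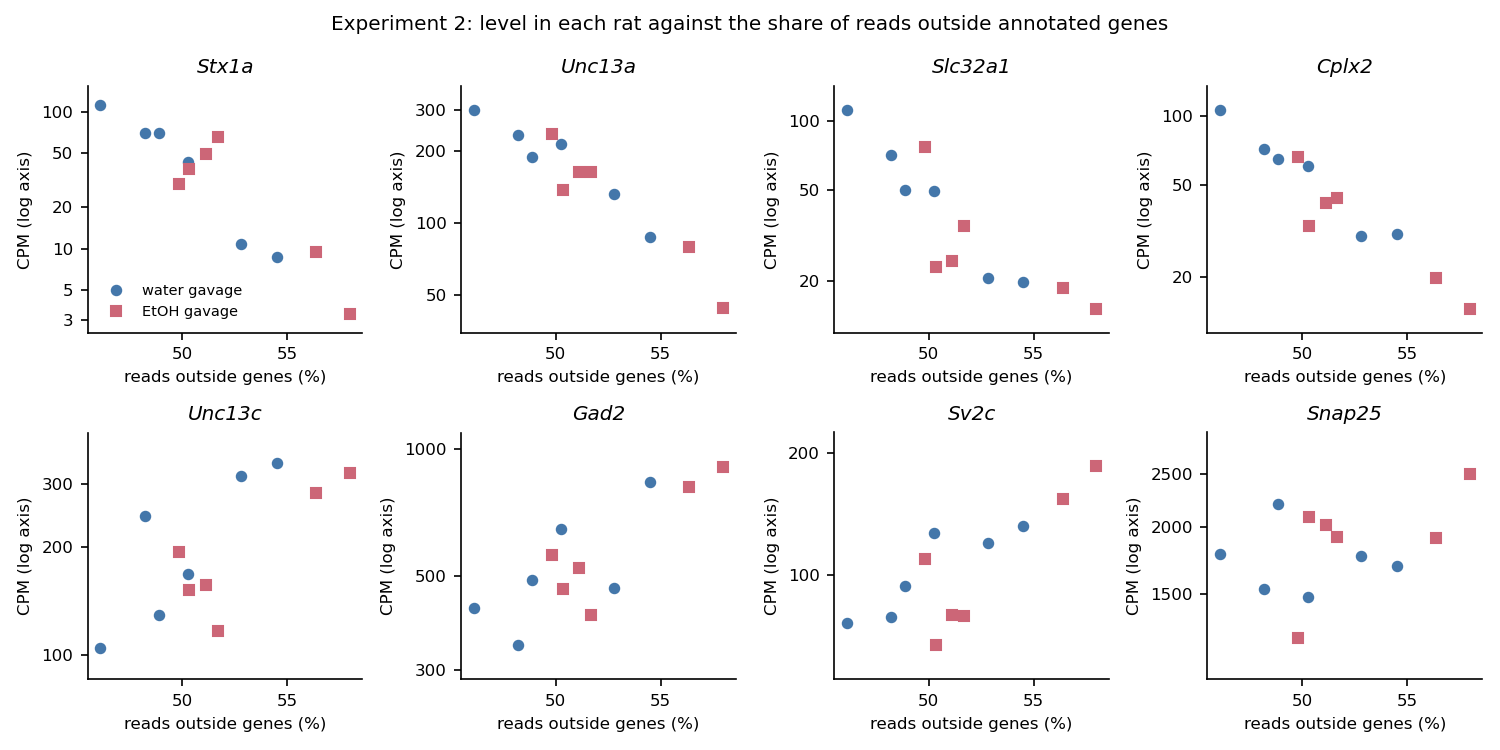
Level of 8 members (CPM, log axis) against the share of reads outside annotated genes (%) in the 12 rats of experiment 2, with circles for water gavage and squares for EtOH gavage. Stx1a, Unc13a, Slc32a1 and Cplx2 fell and Unc13c, Gad2 and Sv2c rose, with rats of both groups along the same course, while Snap25, which did not pass the test, lay between 1246 and 2503 CPM.

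Of the coat and membrane proteins 4 of 7 fell and 1 rose, again beside 33.9% falling and 33.9% rising over all genes. Sv2a measured 344, 591, 466, 577, 291 and 509 CPM in water gavage and 203, 281, 464, 498, 451 and 462 CPM in EtOH gavage rats, and fell at -0.13 (SE 0.018, adjusted p = 2.09e-05). Sv2c, the SV2 form that is typical of the basal ganglia, measured 132, 76.5, 79.3, 94.0, 120 and 127 CPM in water gavage and 185, 154, 79.7, 110, 67.5 and 79.9 CPM in EtOH gavage rats, and rose at 0.12 (SE 0.022, adjusted p = 0.000165). Syp (synaptophysin, an abundant vesicle membrane protein) measured 166, 272, 221, 356, 78.0 and 294 CPM in water gavage and 66.8, 151, 276, 223, 273 and 280 CPM in EtOH gavage rats. Its slope was -0.18 (SE 0.044, adjusted p = 0.00225), and EtOH gavage replicate 1 and water gavage replicate 5 were far below the other 10 rats. Sv2b and Syn2 fell with adjusted p of 0.0219 and 0.0375, and Syn1 and Syn3 did not pass the test.

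The synaptotagmins were divided. Syt5 (-0.11, SE 0.018, adjusted p = 6.72e-05) and Syt7 (a slow calcium sensor; -0.075, SE 0.019, adjusted p = 0.00277) fell, as did Syt11 with an adjusted p of 0.0103. Syt2 (a fast calcium sensor; 0.11, SE 0.028, adjusted p = 0.00311) and Syt4 (0.058, SE 0.015, adjusted p = 0.00277) rose. Syt1, the main fast calcium sensor of forebrain synapses, was at -0.0030 (SE 0.025, adjusted p = 0.921), with 371 to 722 CPM over the 12 rats. Of the endocytosis genes Dnm1 fell at -0.13 (SE 0.020, adjusted p = 4.68e-05) and Synj1 (synaptojanin-1, a phosphatase that helps shed the clathrin coat) rose at 0.038 (SE 0.016, adjusted p = 0.0428).

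The genes that make and load GABA went different ways. Slc32a1 fell at -0.25 (SE 0.041, adjusted p = 9.07e-05), with its per-rat levels as given above. Gad2 measured 836, 421, 344, 489, 468 and 646 CPM in water gavage and 906, 811, 404, 561, 467 and 521 CPM in EtOH gavage rats, and rose at 0.11 (SE 0.023, adjusted p = 0.000570). Its 3 highest levels were in the 3 rats of the highest share. Without the 2 rats of the highest share, a setting also chosen after the data were seen, 16 of 36 members passed (44.4%, against 42.6% of all genes in the same fit). Among those that did not were Gad2 (slope 0.096, adjusted p = 0.0536), Sv2c (0.086, adjusted p = 0.0632), Syt7 (-0.075, adjusted p = 0.0631), Syp (-0.14, adjusted p = 0.0948) and Syt4 (0.044, adjusted p = 0.101), all with the sign they had over 12 rats. Without EtOH gavage replicate 1 alone Syt4 had an adjusted p = 0.0603. Gad1, the GAD67 enzyme that makes most GABA, was at 0.025 (SE 0.021, adjusted p = 0.306), between 657 and 1272 CPM.

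The slopes could be compared between groups that share no rat. Fitted in the 6 water gavage rats alone and in the 6 EtOH gavage rats alone, the slope had the same sign in 32 of 36 members (88.9%), against 89.5% of 8472 genes. Each group alone had 20 members past an FDR below 0.05, where 40.3% and 55.0% of all genes passed, and 15 of them passed in both groups, all 15 with the same sign. The share of all genes that passed in both groups was not computed, so this count is not a result about the members. Across the 36 members, which share libraries within a group, the correlation of the slopes was 0.926, beside 0.930 over all genes. Stx1a was at -0.48 in water gavage and -0.43 in EtOH gavage rats, Unc13a at -0.20 and -0.25, Unc13c at 0.18 and 0.13, and Gad2 at 0.11 and 0.11.

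**Figure D4:**
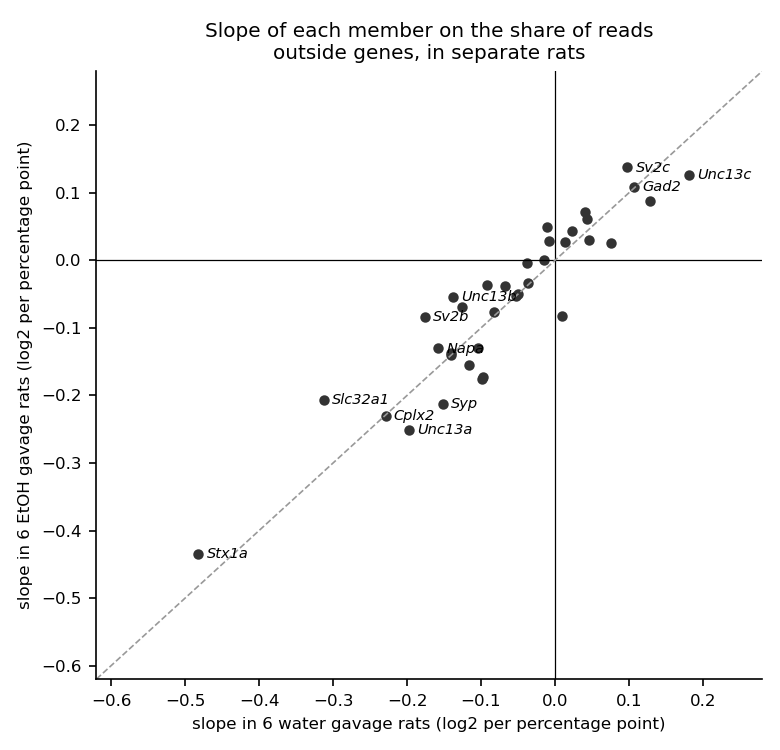
Slope of 36 members on the share of reads outside genes (log2 per percentage point), in the 6 water gavage rats (horizontal axis) and in the 6 EtOH gavage rats (vertical axis), each point a member, with the line of equal slopes dashed. Of the 36 members 32 lie in the quadrants of equal sign, with Stx1a at the lower left (-0.48 and -0.43) and Unc13c and Sv2c at the upper right.

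As 1 value per rat, the mean z-score of log2 CPM over the 37 members was -0.16 ± 0.32 (SD, n = 5) in EtOH and 0.16 ± 0.47 (SD, n = 5) in water rats, a difference of -0.32. In experiment 2 it was -0.026 ± 0.28 (SD, n = 6) in EtOH gavage and 0.026 ± 0.48 (SD, n = 6) in water gavage rats, a difference of -0.052. Both differences were smaller than the SD of the water group. With 1 rat left out they ran from -0.44 to -0.13 in experiment 1 and from -0.21 (without water gavage replicate 5) to 0.077 (without water gavage replicate 4) in experiment 2. The score had a Pearson correlation with the share of -0.54 (Spearman -0.64, n = 10) in experiment 1 and of -0.56 (Spearman -0.62, n = 12) in experiment 2, with depth and library in common. Without the 2 rats farthest from the median share these became -0.27 (n = 8) and -0.46 (n = 10). Within water gavage the correlation was -0.58 and within EtOH gavage -0.66 (n = 6 each), and groups of 5 in experiment 1 were too small for a value. With the share taken over all lines of the count file they were 0.38 and -0.29, so the sign in experiment 1 rests on the denominator.

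**Figure D5:**
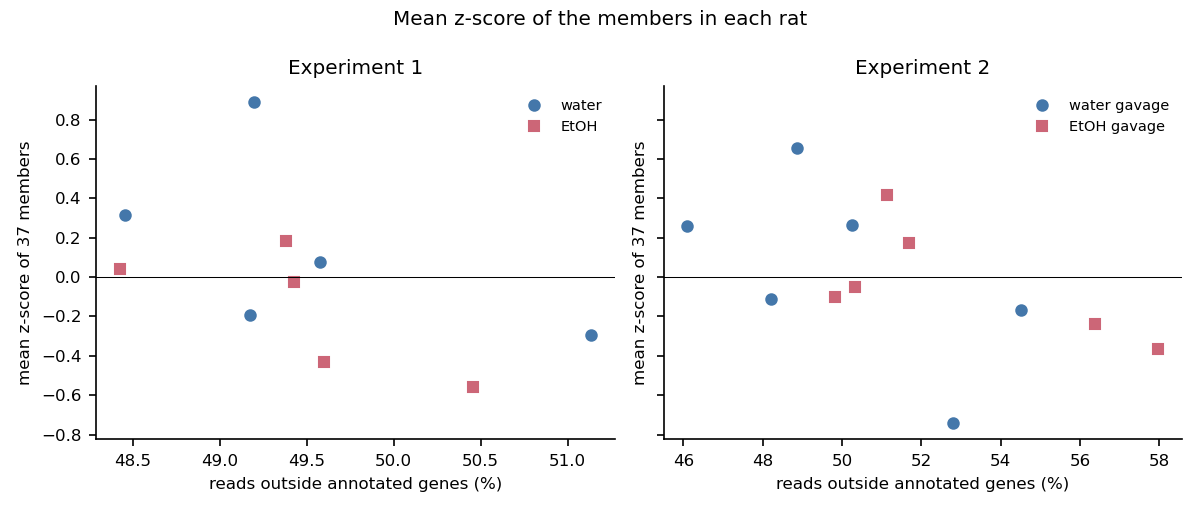
Mean z-score of log2 CPM over the 37 members (vertical axis) against the share of reads outside annotated genes (%, horizontal axis) for each rat, experiment 1 on the left (water circles, EtOH squares, 5 each) and experiment 2 on the right (water gavage circles, EtOH gavage squares, 6 each). Water gavage replicate 5, at -0.74, is the lowest of all rats, and the groups overlap in both panels.

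The members were not one block. The median correlation over the 666 pairs of members was 0.20 in experiment 1 and 0.21 in experiment 2, and 38.6% and 42.0% of pairs were negative. Nsf followed the other members most closely, with a correlation of 0.90 in experiment 1 and 0.89 in experiment 2. Unc13c went against them in both, at -0.46 and -0.81. The median coefficient of variation of the members was 11.7% in experiment 1 and 27.1% in experiment 2, beside 11.5% and 24.1% over all genes.

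Levels also differed between the experiments, which were scaled separately and prepared with different library types, so that experiment and library type cannot be told apart. Cplx2 averaged 441 CPM in experiment 1 and 48.7 CPM in experiment 2, and Slc32a1 270 and 43.0 CPM. Snap25 averaged 1745 and 1843 CPM.

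Markers of glutamatergic neurons, whose cell bodies lie mostly outside the NAc, moved with the score and the share in experiment 2. All 7 markers of that list were found in the files and none was at 0 in every rat. Their summed level ran from 125 to 787 CPM in water, 273 to 728 CPM in EtOH, 3.34 to 556 CPM in water gavage and 8.99 to 458 CPM in EtOH gavage rats. Slc17a7 (VGLUT1), their defining gene, ran from 0.139 to 437 CPM in experiment 2. All 5 tested in experiment 2 passed on the share and fell, as did 33.9% of all genes. The score of the list had a correlation of 0.82 with the member score and -0.74 with the share (n = 12). With this score as a covariate, a fit chosen after the data were seen, 15 of 36 members passed on the share (41.7%, against 40.3% of all genes in the same fit) and 0 passed on the gavage contrast (0 of all genes). Stx1a still passed at a smaller slope of -0.21 (adjusted p = 0.00158), and Unc13a (-0.23), Cplx2 (-0.23), Napa (-0.14), Slc32a1 (-0.30) and Gad2 (0.11, adjusted p = 0.0499) also passed. Unc13c (slope 0.056, adjusted p = 0.343), Syp (-0.011, adjusted p = 0.860) and Sv2c (0.089, adjusted p = 0.0739) no longer passed. Nor did Syt4, whose slope of 0.053 was close to its 0.058 without the covariate, Dnm1 (-0.062), Syt2 (0.054), Bsn (-0.039), Syt7 (-0.021) or Nsf (-0.011). Other lists moved in different ways. The score of general neuronal markers had a correlation of 0.88 with the member score and -0.44 with the share, that of interneuron markers 0.72 and -0.69, and that of astrocyte markers -0.73 and 0.46 (n = 12 each). Markers of projection neurons went against the members, with -0.57 for the member score and 0.11 for the share (n = 12). On the share 6 of 12 of them passed (50%, 4 rising). On the share these lists were below the 67.8% of all genes that passed. The counts were 4 of 7 general neuronal markers (57.1%, 3 falling), 2 of 5 interneuron markers (40%, both falling) and 5 of 8 astrocyte markers (62.5%, 3 rising). Their summed levels in water gavage and EtOH gavage rats were 2139 to 3263 and 2647 to 3131 CPM for general neurons, 53.8 to 123 and 56.4 to 128 CPM for interneurons, and 3390 to 4643 and 3356 to 5573 CPM for astrocytes. Of the 6 interneuron markers Npy was listed at 0 in every rat. Of 8 microglial markers 6 passed on the share, all falling (75%, against 67.8% of all genes that passed and 33.9% that passed and fell). The score of that list had a correlation of -0.91 with the share, with summed levels of 195 to 450 CPM in water gavage and 173 to 363 CPM in EtOH gavage rats. The part of other cells in the slopes was otherwise not tested.

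A wider list of the vesicle cycle, with clathrin adaptors, vesicular transporters and proton pump subunits, gave 73 tested genes in experiment 1 and 72 in experiment 2. None passed in either contrast, where 4 and 1 had an unadjusted P-value below 0.05 (background 5.58% and 1.33%). The lowest P-values in experiment 1 were those of Syt3 (log2 fold change -0.23, adjusted p = 0.861) and Stxbp6 (-0.36, adjusted p = 0.861), and in experiment 2 those of Syt6 (-0.65), Snap29 (0.21) and Atp6v1h (0.25), each with an adjusted p = 0.675. In experiment 2, 50 of 72 passed on the share (69.4%, background 67.8%), 34 falling and 16 rising, so this list too was near the background. The 10 lowest P-values all belonged to genes that fell, from Atp6v0c (a membrane subunit of the vesicular proton pump; slope -0.26, SE 0.017, adjusted p = 8.76e-07) and Cltb (clathrin light chain b; -0.16, SE 0.014, adjusted p = 1.39e-06) through Syt13, Snap47, Ppfia3, Ap2a1, Sncb, Rph3a and Ap2s1 to Sh3gl1 (endophilin A2; -0.31, SE 0.034, adjusted p = 4.18e-06). In experiment 1 none passed on the share (background 0%), and 12 of 73 had an unadjusted P-value below 0.05 (background 9.6%).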

How the data were processed

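PolyA+ RNA of the NAc was sequenced by the authors from 22 rats, as paired reads. The authors aligned reads to rn6 with TopHat2 (2.0.13) and counted them per gene with htseq-count (HTSeq 0.5.3p3 and 0.6.0 are both named), and they used DESeq2 (1.6.2). Counting options and the annotation release are not given in the sources used here. Each deposited file holds raw counts per gene symbol for 1 rat, with 5 summary lines that were left out of the tests. Samples were grouped by their labels, and separate rats are the replicates. No 2 rats of a group agreed within sampling noise.

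Counts were analysed in R (4.3.3) with edgeR (4.0.16), using TMM factors, the quasi-likelihood F test and Benjamini-Hochberg adjustment over the 8655 genes of each experiment whose base mean was above the median of all listed genes. SE is the absolute log2 change over the square root of F. The share fits held the group and the centred share. Fits were tested on simulated data. z-scores used log2 CPM with a prior count of 2. The text names the 8 members with the lowest P-value of each fit and, for slopes, up to 20 below an FDR of 0.1, and up to 3 (contrasts) or up to 10 (share) of the wider list, 1 of which is not reported here. The members, lists and rules were chosen with earlier results of these data known. Each contrast was also run with DESeq2 (1.42.0) and other settings. Counts limit precision where a member is low, as for Syn3, Syt2 and Amph. Coordinates are from RefSeq (GRCr8), not rn6.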

Additional observations from a re-analysis of the deposited data

Results flagged for a closer look

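In 4 of 156 sets of values within a group (the CPM of each member, the share of reads outside genes and the mean z-score), 1 rat stood apart from the others of its group by Dixon's 95% criterion, where chance gives about 7.8. Syt2 was 27.2 CPM in EtOH replicate 2, against 10.5 to 14.7 CPM in the other EtOH rats. Syn2 was 209 CPM in water gavage replicate 5, against 348 to 393 CPM in the rest. Syt4 was 869 CPM in EtOH gavage replicate 1, the rat of the highest share of reads outside genes, against 504 to 629 CPM in the rest. Slc32a1 was 76.7 CPM in EtOH gavage replicate 4, the rat of the lowest share in its group, against 15.2 to 34.8 CPM in the rest.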

How the results depend on the processing

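No member passed in either contrast or in the interaction under any setting run, DESeq2 included (4 and 1 members at an unadjusted P-value below 0.05 in the contrasts). In experiment 2 the 26 members called on the share became 14 with a replicate block, 16 without the 2 rats of the highest share and 15 with the glutamatergic score as covariate (the latter settings added after the data were seen), and leaving out 1 rat gave 21 to 28. The other settings gave 18 to 26. The share of all genes that passed is not given beside these ranges, so they are not a result about the members. Correlations between rats of equal number were -0.13 to 0.14 in experiment 1 and -0.76 to 0.84 in experiment 2, where 4 of 6 were above 0.1. Because most of the variance in experiment 2 followed the share, they cannot decide whether the replicate numbers pair the rats. With the block 0 members passed in either contrast. With the share as covariate the median fold change in experiment 2 was 0.059 and Slc32a1 turned to 0.046. With the share over all lines the correlation of the score was 0.38 in experiment 1 and -0.29 in experiment 2, and the slopes in experiment 1 turned for Sv2b (0.028), Nsf (0.056), Bsn (0.18), Unc13c (-0.31), Dnm1 (0.083), Pclo (0.16) and Napb (0.31); the cause was not tested. Leaving out 1 rat gave medians of -0.065 to 0.0052 and -0.10 to -0.050, score differences of -0.44 to -0.13 and -0.21 to 0.077 (above 0 only without water gavage replicate 4), and correlations of -0.67 to -0.41 and -0.60 to -0.51, for experiments 1 and 2.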
